A study of Mus musculus with 6 samples.

Results

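The genes described here encode the 7 ligands of the epidermal growth factor receptor (Egf, Tgfa, Areg, Ereg, Hbegf, Btc and Epgn) and 3 receptors of its family (Egfr, Erbb2 and Erbb3). The 10 genes were chosen by name, and every array probe whose RefSeq accession maps to one of them was taken. This gave 12 of 55681 probes, with 3 for Egfr and 1 for each of the other genes. All 10 genes were among the 17834 genes tested, since the scanner software marked a probe of each as well above background on 3 or more of the 6 arrays, counted without regard to group.

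RNA came from male mice carrying an EGFP reporter driven by the keratin 15 promoter. All mice were depilated, and their skin then received either vehicle, which was acetone, or the carcinogen DMBA (7,12-dimethylbenz[a]anthracene). Epidermal cells with high EGFP, high integrin alpha 6 and no surface Sca1, called hair follicle stem cells and hair germ in the labels, were sorted 3 days after exposure. Each group held 3 samples from different mice, with 1 single-colour Agilent array each, and the comparison asked how the expression of these cells differs after DMBA. Strain, age and whether a sample pooled several mice are not given in the sources used here, and there was no untreated or undepilated group.

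The ligands are made as membrane-bound precursors, and proteases of the ADAM family release them. A bound ligand pairs EGFR with itself or with another ERBB receptor, and the pair signals through RAS and ERK, PI3K and AKT, and STAT proteins. The pathway is known in skin for its part in keratinocyte growth, wound closure and hair shape: mice with mutations in Tgfa or Egfr have wavy hair. ERBB2 binds no ligand of its own and serves as a partner, and ERBB3 binds neuregulins but has a weak kinase.

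Values are log2 signals minus the log2 of the array's 75th percentile, so 0 is the 75th percentile of that array. Probes differ in brightness for reasons other than transcript number, so no gene's level was set against another's. On the intensity scale that percentile lay between 1355 and 2274, and 77% to 83.6% of probes were well above background on the vehicle arrays against 69.3% to 80.9% on the DMBA arrays. The sort markers Krt15 and Itga6 were well above background on all 6 arrays, with Krt15 from 5.70 to 6.49 and Itga6 from 1.76 to 2.80. Vehicle 1 lay on its own slide and was scanned apart from the other 5 arrays. In RNA from sorted populations, fewer cells of a type and less RNA per cell cannot be told apart.

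None of the 10 genes passed the test over all genes (limma, two-sided, Benjamini-Hochberg threshold of 0.05), and neither did any other gene (0 of 17834, or 0%, smallest adjusted p = 0.438). In this set, adjusted p ran from 0.872 for Epgn to 0.9996. At a limma p under 0.05 before adjustment stood 1 of the 10, Epgn, which was higher, where the share of all genes was 5.23%, with 2.74% higher and 2.5% lower. The 3 DMBA arrays lay above the 3 vehicle arrays for Epgn and Tgfa, 2 of 10 genes, against 4.88% of all genes. They lay below for 0 of 10, against 5.17% of all genes. Of the 10 genes, 8 had a higher mean after DMBA, against 48.7% of all genes, and their median log2 difference was 0.42, against -0.01 over all genes. For the 7 ligands the median was 0.63, and for the 3 receptors it was 0.14. Among the 8 genes, Areg, Ereg and Btc were well above background on only 3 of the 6 arrays, and their undetected values were taken as measured. The lowest value of any probe was -8.73 to -8.23 on the vehicle arrays and -8.01 to -7.32 on the DMBA arrays. How much this added to the higher means was not tested.

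**Figure D1:**
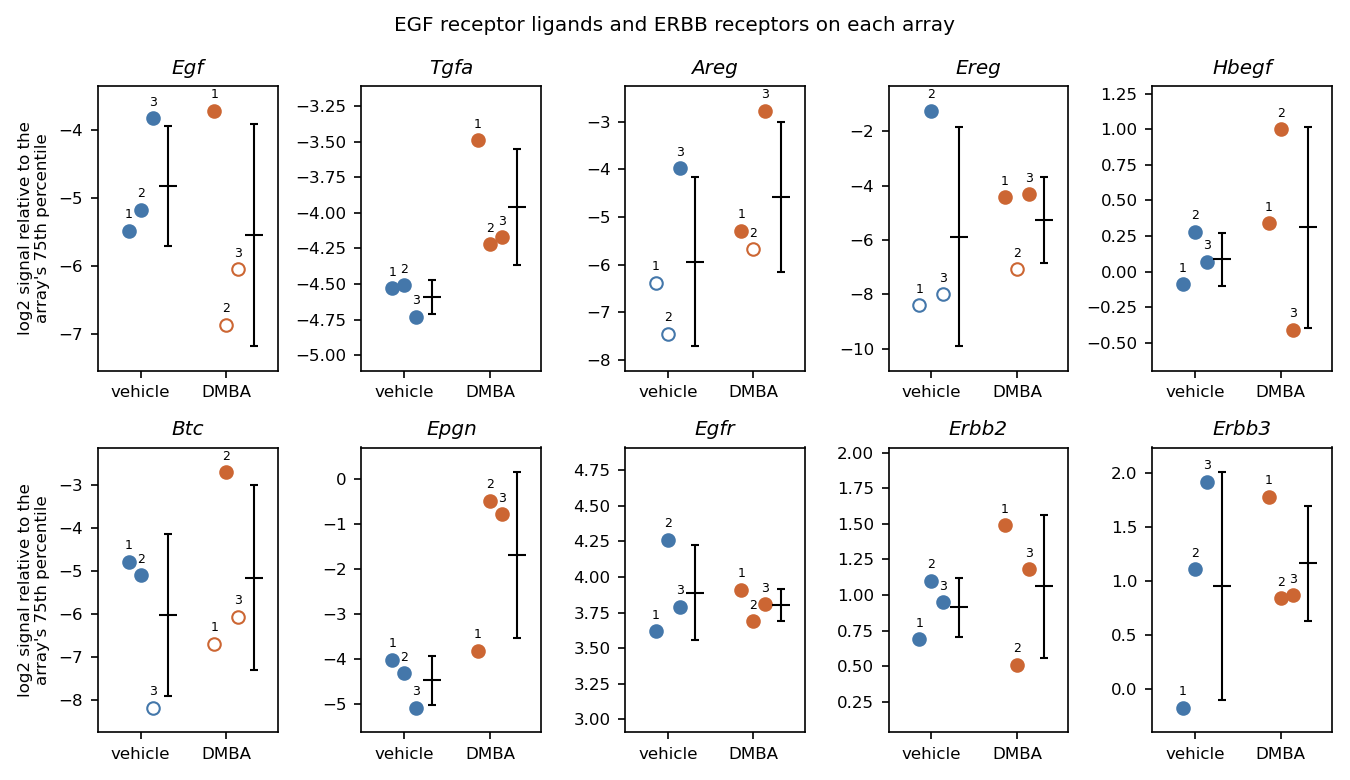
Each panel plots 1 gene, with the log2 signal relative to the array's 75th percentile on the y axis (a scale of its own per panel) and the group on the x axis; numbers are the replicates, filled points were well above background, open points were not, and bars give the mean ± SD of 3 arrays. Epgn and Tgfa are the panels where all DMBA points lie above all vehicle points, and Areg, Ereg, Btc and Egf hold open points.

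Epgn encodes epigen, an EGFR ligand of low affinity that keratinocytes make. It had the largest difference of the family. Its values were -4.03, -4.32 and -5.09 on vehicle 1 to 3 and -3.82, -0.49 and -0.79 on DMBA 1 to 3, and its probe was well above background on every array. DMBA 2 and 3 were far above the vehicle arrays, while DMBA 1 exceeded the highest vehicle array by only 0.22. The mean was -4.48 ± 0.54 (SD, n = 3) in vehicle and -1.70 ± 1.84 in DMBA. The log2 difference was 2.78 (SE 0.90, 95% interval 0.59 to 4.97), or 6.88-fold, which did not pass (adjusted p = 0.872 with limma; unadjusted p = 0.0205 in the same limma fit). Epgn ranked 418 of the 17834 genes by p, and 45 genes (0.252%) had a log2 difference at least as high.

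The size of the Epgn difference depended on the arrays. It was 3.84 without DMBA 1 (limma unadjusted p = 0.000183, adjusted p = 0.398) and from 2.18 to 3.01 when any other array was left out. Without vehicle 3, DMBA 2 or DMBA 3 the unadjusted limma p was 0.0611, 0.0611 and 0.0637, above 0.05. DMBA 2 and 3, where Epgn was high, also had the lowest shares of probes well above background, 69.3% and 73.5%. With that share as a covariate the difference was 1.62 (SE 1.00, limma unadjusted p = 0.163, adjusted p = 0.760). Over the 5 arrays that shared a slide it was 3.01. Markers of the infundibulum, interfollicular epidermis and sebaceous gland were all measured (16 of 16). Their summed level, in multiples of the 75th percentile, was 127 to 161 in vehicle and 123 to 166 in DMBA, with 126 and 123 on DMBA 2 and 3. Of that list Ly6a, the gene of the Sca1 antigen, had its 3 DMBA arrays above its 3 vehicle arrays (log2 difference 1.45, SE 0.45, adjusted p = 0.853 with limma). Sostdc1, a BMP and Wnt antagonist, had its 3 DMBA arrays below its 3 vehicle arrays, with a value of -0.46 (SE 0.21). Groups thus did not overlap in 1 higher and 1 lower of the 16 genes, against 4.88% and 5.17% of all genes.

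Epgn lies on chromosome 5 beside 3 other ligand genes. In the GRCm38.p6 annotation the order is Epgn, Ereg, Areg and Btc, with 3 noncoding genes among them. Of the 10 genes, 7 have an entry in the RefSeq promoter table (build GRCm38.p6). The bases before the transcription start are shown for Epgn, Areg and Btc, so that these neighbours can be set side by side. Capitals mark TATAAA (the TATA box), GGGCGG (a GC box), GCGTG (the core of the element bound by the aryl hydrocarbon receptor, which DMBA activates) and TGANTCA (the AP-1 element), each searched on both strands in the 250 bases before the start.
Epgn, chr5:91027267-91027516, plus strand: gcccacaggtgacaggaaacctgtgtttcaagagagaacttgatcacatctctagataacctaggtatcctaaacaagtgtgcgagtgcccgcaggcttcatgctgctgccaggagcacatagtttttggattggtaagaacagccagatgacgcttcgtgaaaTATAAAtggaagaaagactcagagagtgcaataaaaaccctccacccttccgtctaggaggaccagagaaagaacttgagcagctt
Areg, chr5:91139349-91139598, plus strand: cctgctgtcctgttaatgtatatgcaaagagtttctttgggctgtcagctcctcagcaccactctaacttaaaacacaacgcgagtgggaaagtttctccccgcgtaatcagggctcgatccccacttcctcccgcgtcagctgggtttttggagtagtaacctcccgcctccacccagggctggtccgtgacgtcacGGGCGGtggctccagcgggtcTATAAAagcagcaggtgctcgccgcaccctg
Btc, chr5:91402995-91403244, minus strand: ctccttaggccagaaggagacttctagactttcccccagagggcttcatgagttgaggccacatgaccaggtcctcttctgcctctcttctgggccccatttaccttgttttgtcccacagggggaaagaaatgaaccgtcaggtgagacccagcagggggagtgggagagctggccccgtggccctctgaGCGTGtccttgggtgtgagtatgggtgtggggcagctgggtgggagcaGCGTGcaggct

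In these windows TATAAA began 86 bases before the start of Epgn and 31 bases before that of Areg, where a GC box also began 52 bases before the start. Btc had GCGTG at 59 and 11 bases before its start and none of the other motifs. None of the 3 windows held TGANTCA. Among the 32851 promoter entries of the table, 12.4% held TATAAA, 32.7% GGGCGG, 28.2% GCGTG and 6.75% TGANTCA. The Epgn window was 46.8% G or C, against 57.2% for Areg, 59.6% for Btc and a median of 52.4% over all entries. A match in such a window is a description of its letters only.

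Tgfa encodes transforming growth factor alpha, the ligand mutated in the wavy-haired waved-1 mouse. Its values were -4.53, -4.51 and -4.73 on vehicle 1 to 3 and -3.49, -4.22 and -4.17 on DMBA 1 to 3. The groups did not overlap, with a gap of 0.28 between them, and DMBA 1 was the highest. The log2 difference was 0.63 (SE 0.28, 95% interval -0.04 to 1.3), or 1.55-fold, and did not pass (adjusted p = 0.962 with limma). The probe was spotted 10 times per array, and the SD between spots of an array ran from 0.12 to 0.25. Single spots of the groups overlapped, since the highest vehicle spot was at -4.24 and the lowest DMBA spot at -4.55. The log2 difference was 0.39 without DMBA 1 and 1.00 (SE 0.27, adjusted p = 0.661 with limma) with the share of probes above background as a covariate.

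Areg, Ereg and Btc were detected on some arrays only. Each was well above background on 3 of the 6 arrays, and in each the SD within either group was larger than the difference between the means. Areg encodes amphiregulin, a growth factor that keratinocytes make and respond to. It gave -6.38, -7.45 and -3.98 on vehicle 1 to 3, then -5.29, -5.68 and -2.77 on DMBA 1 to 3. It was well above background on vehicle 3 and on DMBA 1 and 3, and the groups overlapped through vehicle 3. DMBA minus vehicle was 1.36 on the log2 scale (SE 1.11, 95% interval -1.34 to 4.05), and it ranged from 0.45 without DMBA 3 to 2.33 without vehicle 3. Without vehicle 3 only undetected vehicle values were left and taken as measured, so the size of 2.33 is not known.

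Ereg encodes epiregulin, which binds EGFR and ERBB4. Its values were -8.40, -1.25 and -8.00 on vehicle 1 to 3 and -4.42, -7.08 and -4.31 on DMBA 1 to 3. Vehicle 2 was the highest of all arrays, and vehicle 1 and 3 and DMBA 2 were not well above background. The log2 difference of 0.61 had an SE of 1.99 (95% interval -4.21 to 5.43), and it was 2.93 without vehicle 2 and -0.65 without vehicle 1. Without vehicle 2 only undetected vehicle values were left and taken as measured, so the size of 2.93 is not known. Few genes varied more within the groups than Ereg did, with a within-group SD of 3.05, where the median residual SD over all genes was 0.43.

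Btc encodes betacellulin, which also binds EGFR and ERBB4. It lay at -4.79, -5.10 and -8.18 in vehicle and at -6.70, -2.71 and -6.07 in DMBA, and was well above background on vehicle 1 and 2 and on DMBA 2. DMBA 2 was the highest array. The log2 difference of 0.86 (SE 1.32, 95% interval -2.34 to 4.07) turned to -0.36 without DMBA 2 and to -0.21 without vehicle 3. Without DMBA 2 only undetected DMBA values were left and taken as measured, so neither the size nor the sign of -0.36 is known.

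Egf, the ligand that gave the family its name, was the only 1 of the 7 ligands with a lower mean after DMBA. Its values were -5.48, -5.17 and -3.82 on vehicle 1 to 3 and -3.71, -6.87 and -6.05 on DMBA 1 to 3. DMBA 1 and vehicle 3 were the brightest arrays, and DMBA 2 and 3 were not well above background, so their place below vehicle 1 and 2 is not known. Its probe was spotted 10 times. All 10 spots were well above background on DMBA 1, 0 on DMBA 2 and 1 on DMBA 3, and the SD between spots ran from 0.10 to 0.47. On DMBA 2 the dimmest probe that was well above background lay at -5.03, so the Egf value there is only below that limit. DMBA minus vehicle was -0.72 on the log2 scale (SE 0.88, 95% interval -2.84 to 1.41) and takes the values of DMBA 2 and 3 as measured. It moved to -0.06 without DMBA 2, which still takes DMBA 3 as measured. Without DMBA 1, the brightest DMBA array, only undetected DMBA values would be left, so no difference is given.

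Hbegf encodes heparin-binding EGF-like growth factor, which keratinocytes release during wound closure. It was well above background on all 6 arrays, at -0.09, 0.28 and 0.07 in vehicle and 0.34, 1.00 and -0.41 in DMBA. The DMBA arrays held both the highest and the lowest value, and the vehicle arrays lay between them. DMBA minus vehicle was 0.22 on the log2 scale (SE 0.39, 95% interval -0.71 to 1.16) and turned to -0.12 without DMBA 2.

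**Figure D2:**
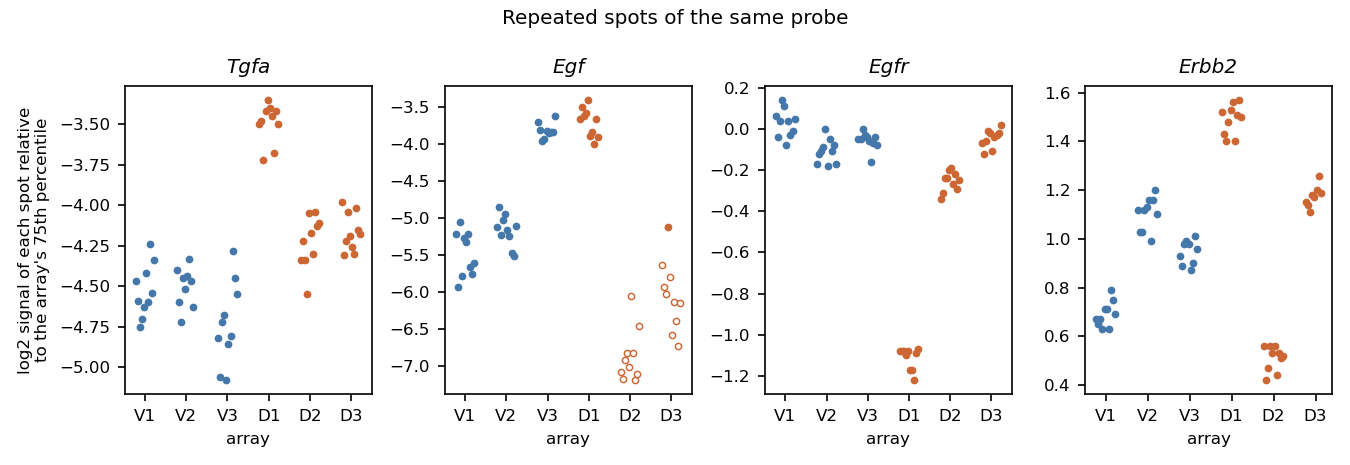
The y axis gives the log2 signal of each spot relative to the array's 75th percentile and the x axis the 6 arrays (V, vehicle; D, DMBA), for the 4 probes spotted 10 times; filled spots were well above background, and spots marked as outliers by the scanner software are left out. For Egfr (probe A_52_P106259) DMBA 1 is the only array apart from the rest, for Egf DMBA 2 and 3 hold mostly open spots, and for Tgfa spots of the groups overlap.

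The receptors were well above background on all 6 arrays and had small differences. Egfr, the receptor for all 7 ligands, was read by 3 probes. The brightest, which stands for the gene, gave 3.62, 4.26 and 3.79 in vehicle and 3.91, 3.69 and 3.81 in DMBA. The DMBA values lay within the vehicle range. The means differed by -0.09 on the log2 scale (SE 0.25, 95% interval -0.70 to 0.52).

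The other Egfr probes differed in sign. The probe A_52_P106259, which the array design assigns to another RefSeq transcript of Egfr than the other probes, read 0.03, -0.11 and -0.06 in vehicle and -1.11, -0.25 and -0.05 in DMBA. Only DMBA 1 stood apart there, and all of its 10 spots lay between -1.22 and -1.07, while the lowest spot on any other array was at -0.34. Neither of the other probes was lowest on DMBA 1. The log2 difference of A_52_P106259 was -0.43 (SE 0.33) and that of A_55_P1956862 was 0.16 (SE 0.67), and neither passed among the 44916 probes tested by limma. Over all 12 probes of the family, 0 passed in that test, and neither did any of the 44916 (0, smallest adjusted p = 0.114 with limma).

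Erbb2 was at 0.69, 1.1 and 0.95 in vehicle and at 1.49, 0.51 and 1.18 in DMBA. DMBA 1 was the highest and DMBA 2 the lowest. Its 10 spots had an SD within an array of 0.045 to 0.067, against an SD between the DMBA arrays of 0.50. DMBA minus vehicle was 0.14 on the log2 scale (SE 0.32, 95% interval -0.62 to 0.91).

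Erbb3 was at -0.17, 1.11 and 1.92 in vehicle and at 1.78, 0.84 and 0.87 in DMBA. The vehicle arrays held both extremes, with vehicle 1, the array on its own slide, lowest. The log2 difference was 0.21 (SE 0.58, 95% interval -1.19 to 1.61), and it was -0.35 over the 5 arrays of the other slide. Melanocytes, which also express Erbb3, were represented by 12 marker genes, of which 10 were measured and Oca2 and Gpr143 were not. At unadjusted p under 0.05 in limma, 3 of the 10 were higher, among them Tyrp1 (3.35) and Mlana (2.72), against 2.74% of all genes, and 5 of 10 were lower at any size. The groups overlapped for Tyrp1 and for Mlana. Tyrp1 was well above background on 3 DMBA arrays but on only 1 vehicle array, so its difference takes undetected vehicle values as measured. The summed level of the list was 3.01 to 4.53 in vehicle and 4.21 to 6.89 in DMBA, in multiples of the 75th percentile, with the lowest value on vehicle 1. Such a sum follows its brightest probes, and Mlana was the brightest of the list on DMBA 2 and 3, at 2.05 and 1.37. The genes did not place vehicle 1 alike. Mlana and Tyrp1 were lowest on it, but Sox10, at -0.46, was highest on it. The part of melanocytes in the Erbb3 values was not tested.

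**Figure D3:**
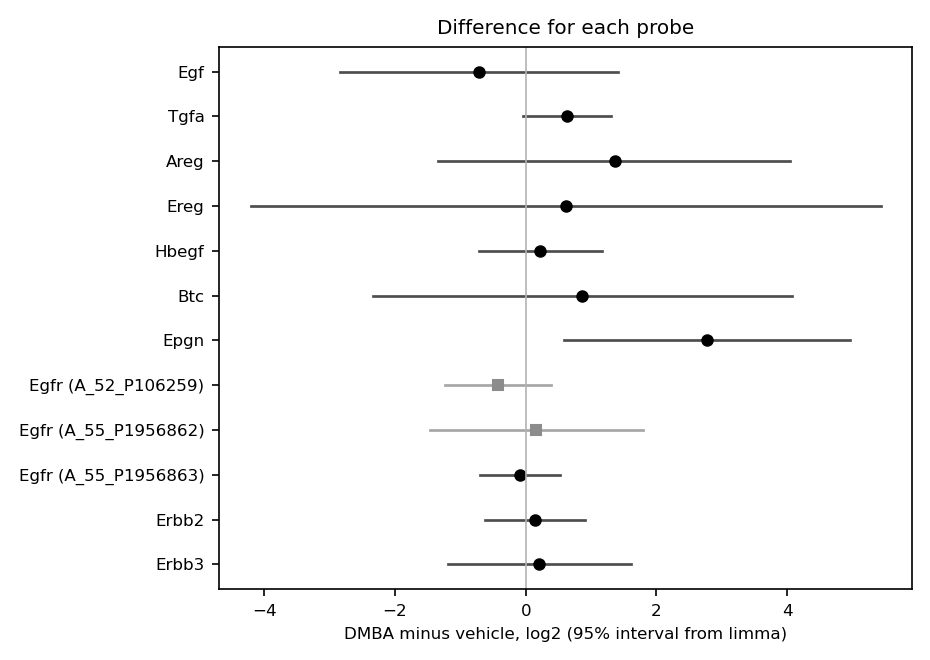
Points give DMBA minus vehicle on the log2 scale for each of the 12 probes and lines the 95% interval from limma, with squares for the Egfr probes that do not stand for the gene. The Epgn interval, from 0.59 to 4.97, is the only 1 that lies wholly above 0, and the intervals of Areg, Ereg and Btc span several log2 units.

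The values above come from 3 arrays a group, and the spread within groups set what could be seen. The median SE over the 7 ligands was 0.90 on the log2 scale, against 0.32 for the 3 receptors and 0.35 over all genes. The genes whose values were most like those of Egfr over the 6 arrays, by root mean square difference after centring, were Tnip3 (0.041), Pcdhb12 (0.057) and Cenps (0.067). The median of that difference was 0.47 over the 17492 genes compared, and Egfr itself spanned only 0.64.

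The fourth receptor and the neuregulins complete the family. For Erbb4, 0 of 6 arrays were well above background. The 4 neuregulin genes, which encode ligands of ERBB3 and ERBB4, all had higher means after DMBA, with log2 differences from 0.30 to 0.98, a median of 0.62 and 0 at unadjusted p under 0.05. Of all genes, 48.7% were higher and 5.23% were at that p in limma, in either direction. Among the neuregulins Nrg1 had the highest difference, 0.98 (SE 0.48, adjusted p = 0.967 with limma), with -3.62, -3.56 and -4.55 in vehicle and -3.53, -2.05 and -3.20 in DMBA. Its groups did not overlap, though DMBA 1 and vehicle 2 nearly met. Nrg4 had a value of 0.91 (SE 0.98) and the opposite sign, -0.75, on its other probe, and Nrg3 and Nrg2 had values of 0.34 and 0.30.

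Of the genes for ligand shedding and trafficking, 10 of 12 were measured, 2 higher and 8 lower, with a median log2 difference of -0.22 and 0 at unadjusted p under 0.05. Over all genes 48.7% were higher and 5.23% were at that p in limma, in either direction. The rhomboid-like proteins Rhbdf1 and Rhbdf2, which carry ADAM17 to the cell surface, had values of -0.48 (SE 0.31) and -0.53 (SE 0.35). The proteases Adam9 and Adam19 had values of -0.42 and 0.61. The groups overlapped in all 4 genes.

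Of the 28 adaptors and transducers, 10 were higher and 18 lower (median -0.19), with 0 and 2 of them at unadjusted p under 0.05 in limma. Over all genes the shares at that p were 2.74% higher and 2.5% lower. Groups did not overlap in 4 of the lower genes, these 2 included, against 5.17% of all genes. The median was 0 without DMBA 1. Stat5a, a transcription factor downstream of the receptors, had a value of -1.01 (SE 0.39, adjusted p = 0.941 with limma). Braf had a value of -0.69 (SE 0.39) and Plcg1 -0.60 (SE 0.34), with 0.47 on the other probe of Plcg1.

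Of 26 inhibitors of the receptors and of their signal, 25 were measured, with 7 higher, 18 lower and a median of -0.18. Of these, 2 lower and 0 higher genes had a limma p under 0.05 before adjustment, against 2.5% and 2.74% of all genes. DMBA lay wholly below vehicle in 2 genes, Nf1 and Hgs, and wholly above in 1, Dusp6, against 5.17% and 4.88% of all genes. The median was -0.34 without vehicle 2. Nf1, a brake on RAS, had a log2 difference of -1.52 (SE 0.48, adjusted p = 0.853 with limma), at -0.25, 0.35 and -0.12 in vehicle and -2.11, -1.97 and -0.50 in DMBA. Hgs, which sorts internalised receptors for breakdown, had a value of -1.09 (SE 0.37) and -1.24 on its other probe. Dusp6, an ERK phosphatase that ERK signalling induces, had a value of 0.43 (SE 0.22) and groups that did not overlap. Lrig1, a membrane protein that dampens ERBB receptors and marks stem cells of the upper follicle, had a value of -0.54 (SE 0.30) and -0.49 on its other probe. None of the 4 passed over all genes.

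Genes that ERK signalling is known to induce went both ways, with 14 of 23 higher, 9 lower and a median of 0.15. Before adjustment 2 higher and 0 lower genes had a limma p under 0.05, against 2.74% and 2.5% of all genes. In 4 genes DMBA lay wholly above vehicle and in 1 wholly below, against 4.88% and 5.17% of all genes. The last was Srf, at -0.37, which is named for this count after its values were seen. The immediate early gene Ier2 had a log2 difference of 1.23 (SE 0.42, adjusted p = 0.894 with limma). Ccn1, which encodes a matrix-associated signalling protein, had a value of 1.56 (SE 0.54, adjusted p = 0.895 with limma), at -2.05, 0.05 and -1.05 in vehicle and 0.31, 0.45 and 0.88 in DMBA. Both genes were lowest on vehicle 1. Fosb, a subunit of AP-1, had a value of 0.63 (SE 0.29). Fosl1, another AP-1 subunit, lay at -5.26, -4.58 and -5.77 in vehicle and -5.38, -2.55 and -2.92 in DMBA, a log2 difference of 1.59 (SE 0.78, adjusted p = 0.967 with limma). It was well above background on 3 DMBA arrays but on only 2 vehicle arrays, so its difference takes an undetected vehicle value as measured. As with Epgn, Fosl1 was high on DMBA 2 and 3 and near the vehicle arrays on DMBA 1. Over the 5 pathway lists together, 37 of 90 genes were higher and 53 lower, with a median of -0.08, against 48.7% of all genes higher.

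**Figure D4:**
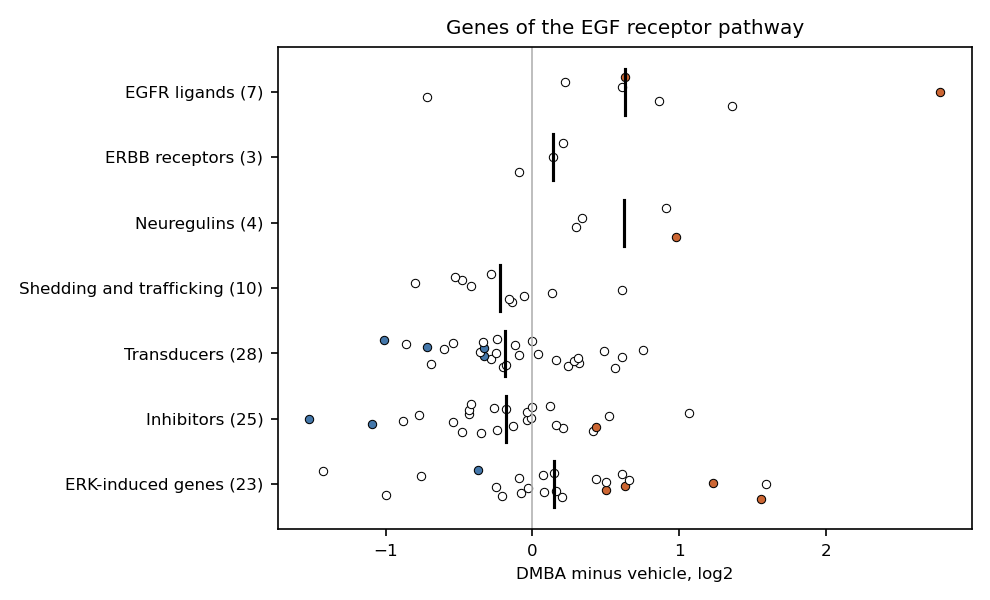
Each point is 1 gene, placed by DMBA minus vehicle on the log2 scale, in rows for the ligands, the receptors and the 5 pathway lists with the number measured; bars mark the medians, and filled points are genes whose groups do not overlap (orange, DMBA higher; blue, DMBA lower). Among the genes plotted Epgn, at 2.78, lies furthest from 0, and the medians run from -0.22 for shedding and trafficking to 0.63 for the EGFR ligands.

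Marker genes of the sorted and of other cells included 0 past the threshold. The 16 hair follicle stem cell and hair germ markers had a median log2 difference of 0, with Lgr5 at -0.64 (SE 0.22, adjusted p = 0.894 with limma) and Sox9 at -0.50 (SE 0.24). In these 2 of the 16 DMBA lay wholly below vehicle, and in 0 wholly above, against 5.17% and 4.88% of all genes. Summed leukocyte markers, 14 of 14 measured, ran from 93.4 to 116 in vehicle and from 89.2 to 144 in DMBA. Most of each sum came from the probe of Itgam, which is named for this sum after its values were seen. It read 6.48, 6.53 and 6.75 in vehicle and 7.11, 6.41 and 6.46 in DMBA. The sum therefore says little about the other leukocyte markers. In that list H2-Eb1 had a log2 difference of 2.30, H2-Aa -0.49 and Ptprc, the pan-leukocyte gene, -0.09. Of the fibroblast and dermal papilla markers, 9 of 12 measured, 5 were higher and 4 lower, with Dcn at 1.51 (SE 0.25, adjusted p = 0.445 with limma), Col1a1 at 1.29 and Col6a2 at -1.66. Endothelial and muscle markers, 7 of 8 measured, summed to 7.61 to 8.24 in vehicle and 7.59 to 9.81 in DMBA, with Eng at 1.14 and Pecam1 at -0.51. Sox10, a gene of melanocytes and Schwann cells, had a value of -0.43.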

How the data were processed

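Total RNA of sorted cells was labelled with Cy3 after cDNA synthesis, per the labels. Arrays were scanned and quantified with Agilent Feature Extraction 10.7.1.1, the version in the file headers. Each deposited scanner file gives processed intensity per spot, corrected for background by the scanner software. The deposited value table, also linear intensity, served as an alternative.

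Intensities were taken to log2 and the log2 75th percentile of each array over non-control spots was subtracted. The 3671 control spots were left out, outlier spots were set missing, and spots of a probe were averaged. A probe counted as well above background where at least 50% of its spots did. Probes with a value on all 6 arrays that were well above background on 3 or more (44916 of 55681) were kept. Names came from RefSeq accessions through the GRCm38.p6 annotation, used for names and gene order only, and the brightest kept probe stood for a gene.

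DMBA was compared with vehicle with limma 3.58.1 in R 4.3.3 (lmFit, eBayes, no covariates), adjusted with Benjamini-Hochberg over 17834 genes. The method was tested on simulated data. Samples came from different mice, per the labels. With 3 arrays a group, their number limits the precision. No spot was saturated (0), and no pair of arrays held identical values.

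The members, lists and tests were chosen with earlier results of these data known. All members are named; from each pathway list the 4 genes of smallest p are named, except an item that is not reported here, and of marker lists set genes with up to 2 of smallest p. The likeness to Egfr was searched among genes whose SD over the arrays was at least 0.5 times that of Egfr. The scanner files give no mean spot signal, so the normexp alternative used the median signal. Alternatives covered background, normalization, filter, probe choice, slide, replicate number, a covariate, the variance prior and each array left out.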

Additional observations from a re-analysis of the deposited data

How the results depend on the processing

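No member or pathway gene passed the threshold under any of the 17 alternatives (0 in each, limma), and Epgn and Tgfa kept their direction in all of them, with log2 differences from 1.62 to 3.84 and from 0.39 to 1.00. Areg also stayed higher in the 16 that tested it. Over all genes the count past the threshold was 0, except 1, Apln, without vehicle 2 (0 to 1 over the arrays left out). The number of members at unadjusted p under 0.05, 1 of 10, was 2 with quantile normalization, 2 with the replicate number as a block and 0 to 2 when each array was left out. With the covariate it was 1 as well, but Tgfa (limma unadjusted p = 0.0136) in place of Epgn (0.163). With normexp Ereg turned to -0.31. With slide as a block Ereg turned to -0.65 and Erbb3 to -0.35, the same as without vehicle 1 by construction. With the share of probes above background as a covariate Egf turned to 0.17 and Egfr to 0.02. When each array was left out, Ereg ran from -0.65 to 2.93, Erbb3 from -0.35 to 0.69, Egfr from -0.22 to 0.10, Btc from -0.36 to 1.63, Erbb2 from -0.07 to 0.42 and Hbegf from -0.12 to 0.58. The cause was not tested. With all arrays and genes, a limma p under 0.05 before adjustment was reached by 488 higher and 445 lower genes, against 1259 and 455 of 21354 with no filter on dim probes, 756 and 560 with the covariate, and 502 and 723 without DMBA 1. Whether the replicate numbers pair the samples is not known. Deviations from the group means correlated across genes with r of 0.018, -0.020 and 0.058 for the same numbers. For different numbers r ran from -0.059 to 0.043, and with 3 arrays a group these values cannot settle it. With that block the second gene was Areg (limma unadjusted p = 0.00639, adjusted p = 0.791). Egf, Areg, Ereg and Btc were not well above background on 2 or 3 arrays each, where only a limit is known. The 2.93 of Ereg without vehicle 2 and the -0.36 of Btc without DMBA 2 take only such values for the group that lost an array.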

Other observations

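DMBA 1 lay apart from DMBA 2 and 3 in several members, in different directions. It had the highest Tgfa of the 6 arrays, was the only DMBA array with Egf well above background, had the lowest Epgn of the 3 DMBA arrays, and alone was low on the Egfr probe A_52_P106259, at -1.11. Without DMBA 1 the log2 difference of Epgn was 3.84. For Egf no difference is given without it, since both of the other DMBA arrays were not well above background. In the whole table, leaving out DMBA 1 gave 723 genes lower at unadjusted p under 0.05, against 445 with all arrays. Epgn did not pass over all genes without it (adjusted p = 0.398 with limma). Why this array differed was not tested.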
